A study of Homo sapiens with 6 samples.

Results

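HOX genes encode homeodomain transcription factors, and the 39 HOX genes of the 4 human clusters were followed here in ZR-75-30 cells, an established human breast adenocarcinoma line of mammary epithelial origin with amplified ERBB2. The members were all rows of the count files whose symbol was HOX, a cluster letter from A to D and a number, which gave 39 of the 26364 symbols listed. The study compared 3 libraries of cells infected with the empty lentivirus (pLVX, called control) with 3 of cells infected with the lentivirus that carries CDK12 (pLVX-CDK12), a kinase of RNA polymerase II elongation. Both groups are the same cell line after lentiviral infection, the labels call the samples of a group biological replicates, and they do not say whether these came from separate infections, so p-values measure the spread between these libraries. Polyadenylated RNA was read by RNA sequencing, and the series title gives the purpose as finding targets of CDK12. The libraries held 21178163 to 26543653 counts, and CDK12 itself was 27.3-fold higher, with 72.8 to 81.8 CPM (counts scaled to a common library total with TMM factors) in the control libraries and 2009 to 2240 CPM in the CDK12 libraries.

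Human HOX genes lie in 4 clusters, HOXA, HOXB, HOXC and HOXD, and each number from 1 to 13 names a paralogue group, the copies of 1 ancestral gene. In embryos the low numbers act towards the head and the high numbers towards the tail, in the order in which they stand along the cluster. HOX proteins bind DNA with PBX and MEIS partners, retinoic acid induces many low-numbered genes, and Polycomb and trithorax complexes keep the clusters off or on. In adult epithelia, breast among them, a part of the genes stays on, and altered HOX levels have often been described in breast tumours.

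The cells expressed the HOXB and HOXC clusters, had low levels of part of HOXA and were nearly without HOXD transcripts. HOXB genes took 76.4% to 81.8% of all HOX counts in a library and HOXC genes 17.6% to 23.2%. HOXA genes took 0.410% to 0.587%, and HOXD genes 0.0324% to 0.0491%. Of the 39 members, 22 passed the low-count filter and were tested, namely all 9 of HOXC, 8 of the 10 of HOXB, 5 of the 11 of HOXA and 0 of the 9 of HOXD. The 3 members with 0 counts in all 6 libraries were HOXD4, HOXD8 and HOXD9, and the other 14 had trace counts. In bulk RNA, fewer expressing cells and less RNA per cell cannot be told apart.

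**Figure D1:**
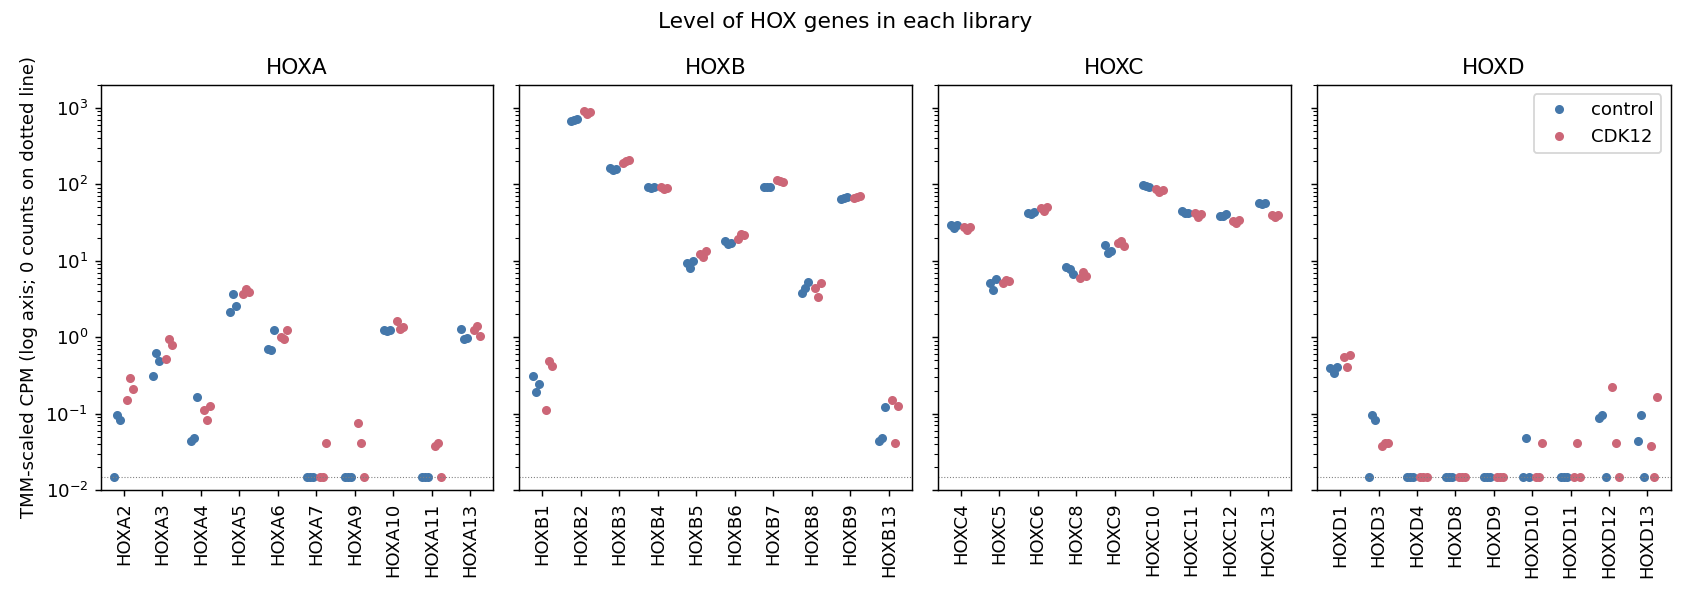
Level of HOX genes in each library, as TMM-scaled CPM on a log axis, by cluster (blue, 3 control libraries; red, 3 CDK12 libraries; zeros stand on the dotted line). HOXB2 stands at 678 to 924 CPM, while HOXD4, HOXD8 and HOXD9 stand at 0 in all libraries.

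Windows of 250 bases ahead of the annotated start were read from RefSeq promoters (GRCh38.p14) for 20 of the 39 members. Members for which the table gave no window include HOXA5, HOXB2 to HOXB9, HOXB13, HOXC6, HOXC8 to HOXC13 and HOXD9. Each window was searched on both strands for TGATNNAT, a form of the joint binding site of HOX and PBX proteins, which 6.49% of the 34943 distinct windows in the table hold. It was found ahead of 3 members, HOXA2, HOXB1 and HOXD11, which all had trace counts. Of the 20 members with a window, 14 were at trace level or silent. The windows of HOXB1 and HOXD11 are shown as members that hold the site and were not above trace level, and that of HOXB-AS1 as a cluster RNA that rose and has no match. Capitals mark the match, which in HOXD11 is on the reverse strand. They lie at chr17:48531012-48531261 (minus strand), chr2:176107030-176107279 (plus strand) and chr17:48544101-48544350 (plus strand), in the same order.
HOXB1: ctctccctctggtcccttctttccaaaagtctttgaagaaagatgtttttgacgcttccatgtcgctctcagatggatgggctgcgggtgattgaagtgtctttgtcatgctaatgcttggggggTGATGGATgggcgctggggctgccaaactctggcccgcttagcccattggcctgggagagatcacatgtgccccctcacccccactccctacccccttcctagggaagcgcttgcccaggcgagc
HOXD11: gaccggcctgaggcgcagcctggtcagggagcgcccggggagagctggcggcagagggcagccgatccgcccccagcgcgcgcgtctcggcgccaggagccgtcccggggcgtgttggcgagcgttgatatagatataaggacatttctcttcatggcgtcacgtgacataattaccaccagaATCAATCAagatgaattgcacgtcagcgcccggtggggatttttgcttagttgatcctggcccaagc
HOXB-AS1: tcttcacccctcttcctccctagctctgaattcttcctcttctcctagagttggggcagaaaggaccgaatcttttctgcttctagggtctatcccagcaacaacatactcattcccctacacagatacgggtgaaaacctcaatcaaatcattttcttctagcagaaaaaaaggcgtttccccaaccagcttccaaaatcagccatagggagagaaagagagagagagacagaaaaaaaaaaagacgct
A match describes these letters only. The HOXB1 window holds 7 CpG pairs, that of HOXD11 23 and that of HOXB-AS1 4, against a median of 11 over all windows, so trace members had CpG-rich as well as CpG-poor windows.

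Levels were set on a common scale as TMM-scaled CPM per kilobase of exon (GENCODE 29), since counts of genes of different length cannot be compared. On that scale HOXB2, a hindbrain patterning gene of paralogue group 2, led in the controls with 445 ± 12.8 (SD, n = 3). HOXB7 followed at 67.1 ± 0.82 CPM per kilobase and HOXC10 at 49.2 ± 1.50. HOXB9 (25.6 ± 0.69), HOXB3 (25.4 ± 0.65), HOXB4 (24.2 ± 0.45) and HOXC13 (23.4 ± 0.66) came next on the same scale, close to one another. HOXC11 (13.1 ± 0.37), HOXC6 (13.1 ± 0.45), HOXC4 (12.5 ± 0.76) and HOXC12 (11.9 ± 0.34 CPM per kilobase) formed a further group whose neighbours lay within their SDs or near them. HOXC9, HOXB6, HOXB5, HOXC8, HOXB8 and HOXC5 ran from 9.10 down to 2.38 CPM per kilobase. The highest HOXA gene, HOXA5, reached 1.67 ± 0.48. With exons of all annotated transcripts HOXB2 was at 298 CPM per kilobase, still above HOXB7 at 60.2, so its place did not hang on the gene model.

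With CDK12 overexpression, 8 members were higher and 3 lower by edgeR's quasi-likelihood test (Benjamini-Hochberg adjusted p under 0.05 over all 14665 genes tested). HOXB2, HOXB3, HOXB5, HOXB6, HOXB7, HOXA5, HOXC6 and HOXC9 rose, and HOXC10, HOXC12 and HOXC13 fell. Changes were small, from a 1.14-fold rise of HOXC6 to a 1.45-fold fall of HOXC13. These calls are 11 of 22 tested members, or 50%, where 35.1% of all genes tested were called, 16.2% higher and 18.9% lower. With total counts as the only scaling, higher genes made up 61.7% of the calls over all genes in place of 46.1%, while the members again split into 8 higher and 3 lower. No overlap between the groups' libraries was seen for 10 of the 22, or 45.5%, against 45.6% of all genes tested. The median log2 fold change was 0.19 over the tested members and 0.0035 over all genes tested.

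**Figure D2:**
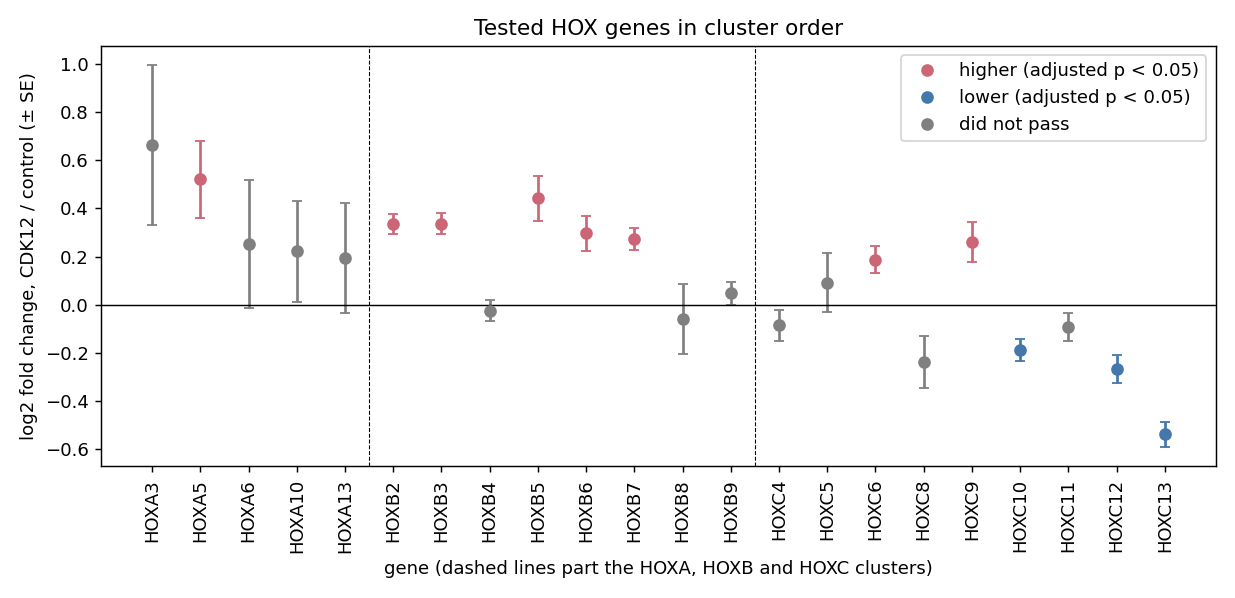
Log2 fold change (CDK12 over control, ± SE) of the 22 tested HOX genes in cluster order, with red for higher, blue for lower and grey for genes that did not pass. In HOXB, HOXB4 (above 0 with upper-quartile or total-count scaling) and HOXB8 stand below 0 and the others above it, HOXB9 by 0.05 without passing, and in HOXC the values run from 0.26 at HOXC9 to -0.54 at HOXC13.

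The HOXB cluster on chromosome 17 held 5 of the 8 rises and no fall. HOXB2 stood at 678, 690 and 717 CPM in the controls and at 924, 830 and 874 CPM in the CDK12 libraries. All CDK12 libraries lay above all controls, and the log2 fold change of CDK12 over control libraries, written here as log2 change, was 0.33 ± 0.04 SE (edgeR quasi-likelihood test, adjusted p = 6.15e-07). HOXB3, the next gene of the cluster and a regulator of hindbrain and pharyngeal development, had 163, 155 and 160 CPM against 190, 202 and 211 CPM. Its groups did not overlap either, with a log2 fold change of 0.34 (SE 0.04; adjusted p = 9.24e-07 by the same test). HOXB2 shares 5.57% of its exonic bases with HOXB-AS1 on the opposite strand, and HOXB3 4.75% with HOXB-AS1 and HOXB-AS3. How strand was treated in counting is not known here, so reads of those stretches cannot be assigned.

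HOXB5, HOXB6 and HOXB7, central genes of the cluster, also rose. HOXB5 was at 9.23, 8.11 and 9.82 CPM in the controls against 12.4, 11.1 and 13.5 CPM with CDK12 (log2 change 0.44 ± 0.09 SE, edgeR adjusted p = 0.000586). Its lowest CDK12 library lay above its highest control, and it had the largest fold of the HOXB genes tested. HOXB6 went from 18.2, 16.5 and 17.2 CPM to 19.4, 22.4 and 22.1 CPM (log2 change 0.30 ± 0.07 SE, edgeR adjusted p = 0.00226). HOXB7, a gene often raised in breast cancer, went from 91.7, 91.0 and 93.2 CPM to 115, 111 and 107 CPM (log2 change 0.27 ± 0.04 SE, edgeR adjusted p = 2.42e-05). In both genes the groups were apart. HOXB6 shares 14.4% of its exonic bases with HOXB-AS3 on the opposite strand, whereas HOXB5 and HOXB7 share 0.

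HOXB4, HOXB8 and HOXB9 did not pass the test. HOXB4, known for its effect on blood stem cells, stood at 92.1, 89.0 and 91.5 CPM in the controls against 91.1, 86.5 and 90.4 CPM with CDK12 (log2 change -0.02 ± 0.04 SE, edgeR adjusted p = 0.701). Its groups overlapped, and the sign of this value turned with upper-quartile or total-count scaling. HOXB9 had 64.5, 65.8 and 68.0 CPM against 66.4, 69.2 and 69.5 CPM (log2 change 0.05 ± 0.05 SE, edgeR adjusted p = 0.464). HOXB8 ranged from 3.82 to 5.20 CPM in controls and from 3.34 to 5.17 CPM with CDK12, so that its groups overlapped almost fully. The counts of HOXB4 are uncertain in part, as 16.1% of its exonic bases are shared with HOXB3, MIR10A and a further transcript on the same strand.

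Both ends of the HOXB cluster were at trace level. HOXB1, the first gene of the cluster and a marker of a single hindbrain segment in embryos, had 7, 4 and 6 counts in controls and 3, 12 and 10 counts with CDK12. HOXB13, a posterior gene known from prostate epithelium, had 1, 1 and 3 counts and 4, 1 and 3 counts. Where no read was counted, up to 3 counts remain possible, which is 0.112 to 0.144 CPM in these libraries and covers counting error only.

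In the HOXC cluster on chromosome 12 genes went both ways. HOXC13, at the far end of the cluster and a regulator of hair keratin genes, had 57.3, 54.8 and 57.7 CPM in controls and 39.5, 37.8 and 39.7 CPM with CDK12. The groups were well apart, and the log2 fold change of -0.54 (SE 0.05; edgeR adjusted p = 5.55e-09) was the largest fall among the members. Of all genes tested, 501 (3.42%) fell as far or farther. HOXC13 shares 7.10% of its exonic bases with the opposite-strand RNA HOXC13-AS, which was at 6.95 ± 0.47 CPM in the controls against 6.80 ± 0.58 CPM with CDK12 (adjusted p = 0.865 by edgeR).

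HOXC12, the neighbour of HOXC13, and HOXC10 were lower as well. HOXC12 went from 38.9, 38.8 and 40.8 CPM to 33.5, 31.1 and 34.1 CPM (log2 change -0.27 ± 0.06 SE, edgeR adjusted p = 0.00073). HOXC10, a gene of hindlimb and lumbar patterning, went from 98.1, 95.5 and 92.3 CPM to 87.6, 80.2 and 83.2 CPM (log2 change -0.19 ± 0.05 SE, edgeR adjusted p = 0.00247). Groups did not overlap for either gene. HOXC11, which stands between them, had 44.2, 42.0 and 42.3 CPM in controls and 42.1, 37.0 and 41.3 CPM with CDK12, and its log2 fold change of -0.09 (SE 0.06) did not pass (edgeR adjusted p = 0.221). HOXC10 shares 8.57% of its exonic bases with a further transcript on the same strand and 2.27% with HOXC-AS3 on the opposite strand.

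HOXC6 and HOXC9 rose, with less margin. HOXC6 had 42.4, 41.1 and 44.0 CPM in controls against 49.2, 45.1 and 50.7 CPM (log2 change 0.19 ± 0.06 SE, edgeR adjusted p = 0.0108). Its groups stood apart, but the call was lost without control replicate 2 (adjusted p = 0.0531) or CDK12 replicate 3 (0.0645). HOXC9, which patterns thoracic motor neurons, had 16.2, 12.8 and 13.6 CPM against 16.9, 18.2 and 15.8 CPM (log2 change 0.26 ± 0.08 SE, edgeR adjusted p = 0.0172). Control replicate 1 lay above the lowest CDK12 library, and the call was lost when control replicate 2 (adjusted p = 0.111), control 3 (0.0718) or CDK12 replicate 2 (0.0895) was left out.

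HOXC4, HOXC5 and HOXC8 did not pass. HOXC4 was at 28.4 ± 1.72 CPM in the controls against 26.8 ± 1.36 CPM with CDK12, and HOXC5 at 5.04 ± 0.84 and 5.41 ± 0.22 CPM. HOXC8 was at 7.68 ± 0.85 and 6.51 ± 0.60 CPM (log2 change -0.24 ± 0.11 SE, edgeR adjusted p = 0.0873), and it passed without control replicate 3 (adjusted p = 0.0351). HOXC4, HOXC5 and HOXC6 share exons, which make up 21.4% of the exonic bases of HOXC4 and 14.9% of HOXC6. For HOXC5 the shared part is 43.4%, counted together with a further transcript on the same strand. RefSeq lists the same start for HOXC4 and HOXC5, with 1 window at chr12:54016638-54016887. The counts of these 3 genes are therefore uncertain.

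Shares of a cluster's counts do not depend on the scaling between libraries. HOXC13 made up 16.9% to 17.3% of HOXC counts in the control libraries and 12.9% to 13.1% in the CDK12 libraries. HOXC6 made up 12.5% to 13.2% in controls and 15.7% to 16.7% with CDK12. HOXC9 made up 3.94% to 4.76% and 5.17% to 6.35%. In none of these 3 genes did the ranges overlap between the groups. HOXC12 had 11.5% to 12.3% in controls and 10.8% to 11.2% with CDK12, while HOXC10 had 27.7% to 29.5% and 27.3% to 28.5%, with overlap. In HOXB, the share of HOXB2 was 60.5% to 61.7% in controls and 62.1% to 64.9% with CDK12. The shares of HOXB4 (7.88% to 8.22% against 6.40% to 6.49%) and HOXB9 (5.76% to 5.87% against 4.67% to 5.18%) were lower without overlap. Between the groups the shares overlapped for HOXB3, HOXB5, HOXB6 and HOXB7, which rose in level, and for HOXB8, HOXC4, HOXC5, HOXC8 and HOXC11. Groups without overlap were common in CPM, at 45.6% of all genes tested, and no such background was made for shares. A gene's share also moves when other genes of its cluster change, and neither HOXB4 nor HOXB9 passed the test on its own level. Summed over members, HOXB went from 1134 ± 23.7 to 1384 ± 43.9 CPM and HOXC from 332 ± 8.18 to 300 ± 10.7 CPM.

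**Figure D3:**
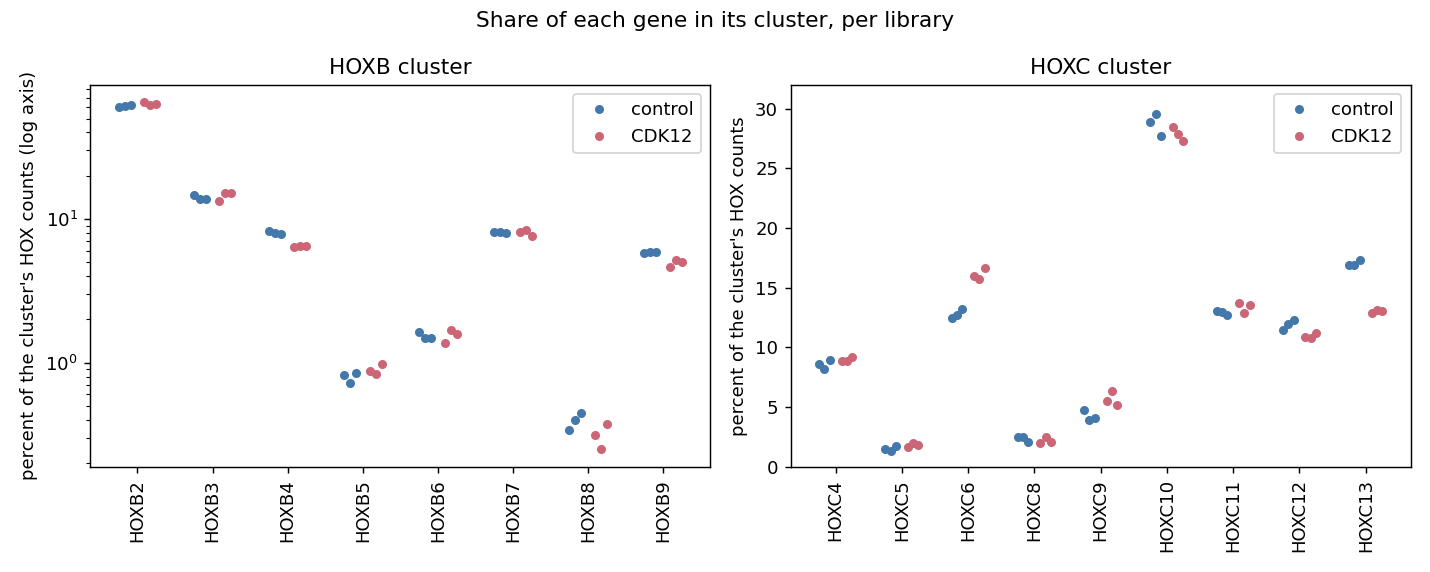
Percent of the counts of a cluster's HOX genes taken by each tested gene, per library (blue, control; red, CDK12; log axis for HOXB, linear axis for HOXC). The HOXC13 points stand at 16.9% to 17.3% in controls and 12.9% to 13.1% with CDK12, those of HOXC6 at 12.5% to 13.2% and 15.7% to 16.7%.

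HOXA genes on chromosome 7 were low. HOXA5, a gene described as lost in many breast tumours, had 2.11, 3.65 and 2.56 CPM in controls and 3.64, 4.28 and 3.92 CPM with CDK12 (log2 change 0.52 ± 0.16 SE, edgeR adjusted p = 0.012). Control replicate 2 was as high as the lowest CDK12 library. Without control replicate 1 the call was lost (log2 fold change 0.36, adjusted p = 0.104).

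The other 4 HOXA genes tested had fitted values above 0 that did not pass. HOXA10, a uterine patterning gene, was at 1.23 ± 0.03 and 1.43 ± 0.19 CPM without overlap between groups (edgeR adjusted p = 0.436). HOXA13, which shapes the distal limb, was at 1.07 ± 0.18 and 1.22 ± 0.18 CPM, HOXA6 at 0.878 ± 0.33 and 1.07 ± 0.16 CPM. HOXA3 was at 0.473 ± 0.16 and 0.753 ± 0.22 CPM (log2 change 0.66 ± 0.33 SE, edgeR adjusted p = 0.121) and passed without CDK12 replicate 1 (adjusted p = 0.0457). These 4 genes had between 7 and 44 counts in a library, which leaves SEs of 0.21 to 0.33 on the log2 scale.

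HOXA2, HOXA4, HOXA7, HOXA9 and HOXA11 were among the trace members of HOXA. HOXA2, the paralogue of HOXB2, had 0, 2 and 2 counts in controls against 4, 7 and 5 with CDK12, without overlap. It was not tested in the main fit. An alternative fit without a filter took in 36 members, those with trace counts included. Its 8 higher and 3 lower members were those of the main fit, so no trace member was called. HOXA4 had 1, 1 and 4 against 3, 2 and 3 counts. HOXA7 had 1 count in all libraries together, HOXA11 2 and HOXA9 3, so transcripts of these 3 genes were at most barely detectable at this depth.

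In HOXD on chromosome 2, HOXD4, HOXD8 and HOXD9 were silent and the other 6 genes stayed at trace level. HOXD1 had the most, with 9, 7 and 10 counts in controls and 15, 10 and 14 with CDK12. Its 10 counts in CDK12 replicate 2 matched those of control replicate 3, and on the CPM scale the groups just parted. HOXD1 was not tested in the main fit and not called in the fit without a filter. HOXD3 had 7 counts in all, HOXD10 2, HOXD11 1, HOXD12 11 and HOXD13 8. At 21178163 or more counts per library, a count of 0 allows a level of up to 0.144 CPM in the shallowest.

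Of the 13 paralogue groups, 12 had a tested member. In group 2 HOXB2 was called higher and HOXA2 had trace counts, and in group 7 HOXB7 rose while HOXA7 had 1 count. Groups 5 and 6 were tested in full, with HOXA5, HOXB5 and not HOXC5 higher in the former, and HOXB6, HOXC6 and not HOXA6 higher in the latter. In group 13 HOXC13 fell, HOXA13 did not pass, and HOXB13 and HOXD13 were at trace level.

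By the usual division along the body axis, anterior genes (groups 1 to 3) had 3 of 8 members tested, of which 2 rose and 0 fell. Central genes (groups 4 to 8) had 11 of 15 tested, of which 5 rose and 0 fell. Posterior genes (groups 9 to 13) had 8 of 16 tested, of which 1 rose and 3 fell. Over all genes tested 16.2% rose and 18.9% fell, and the difference between classes was not tested. All 3 falls lie in posterior genes of HOXC. Among the central genes of that cluster HOXC6 rose, and HOXC4, HOXC5 and HOXC8 did not pass. The tested posterior genes of other clusters, HOXB9 and the low HOXA10 and HOXA13, did not pass either. Whether class or cluster goes with the falls was not tested.

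RNAs other than those of the members are made within the clusters, many from the opposite strand. Of 30 listed ones, microRNA genes among them, 23 were found in the files. Of the 8 that were tested, 3 rose and 0 fell, with a median log2 change of 0.18. The share called is near the 35.1% of all genes tested that were called. HOXB-AS1, which runs against HOXB2 and HOXB3, had 22.4, 23.6 and 24.1 CPM in controls and 30.0, 27.8 and 29.8 CPM with CDK12 (log2 change 0.32 ± 0.06 SE, edgeR adjusted p = 0.000234). It rose beside HOXB2, with 25.9% of its exonic bases opposite exons of HOXB2 and HOXB3. HOXB-AS3 went from 8.87, 8.15 and 7.87 CPM to 9.52, 9.89 and 10.8 CPM (log2 change 0.28, edgeR adjusted p = 0.0207), a call lost with the DESeq2 Wald test (adjusted p = 0.0722) and in 3 of the fits with a library left out (adjusted p = 0.0562 without control replicate 2, 0.0903 without control 3 and 0.0927 without CDK12 replicate 3).

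HAGLR, an antisense RNA that starts beside HOXD1, was the only listed RNA or member of the HOXD cluster that passed the filter. It had 3.43, 2.35 and 3.45 CPM in controls and 5.17, 5.11 and 4.13 CPM with CDK12 (log2 change 0.63 ± 0.15 SE, edgeR adjusted p = 0.00123). All CDK12 libraries exceeded all controls. HOTAIR, a HOXC RNA known for its link to Polycomb and HOXD silencing, was abundant, at 40.6 ± 2.65 CPM in the controls against 42.8 ± 0.11 CPM with CDK12 and did not pass (log2 change 0.08 ± 0.06 SE, edgeR adjusted p = 0.293). HOXC-AS3 (log2 fold change 0.40), HOXC-AS2 (-0.13), HOXC13-AS (-0.03) and HOXC-AS1 (-0.05) did not pass either. The last 2 changed sign under alternatives, and HOXC-AS3 passed without CDK12 replicate 2 (log2 fold change 0.55, edgeR adjusted p = 0.0404). Strand assignment is uncertain for all antisense RNAs here.

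Genes beside the clusters gave 3 rises and 0 falls among 10 tested, with a median log2 change of 0.098. The share called is near the 35.1% called over all genes. SKAP1, next to HOXB1, had 59.9, 60.8 and 57.8 CPM in controls and 76.5, 73.6 and 72.0 CPM with CDK12 (log2 change 0.32 ± 0.05 SE, edgeR adjusted p = 9.09e-06), a rise of the size seen for HOXB2 and HOXB3. CALCOCO2, at the other side of HOXB, had a log2 fold change of 0.10 (SE 0.04; edgeR adjusted p = 0.0424), a call lost in 6 of 14 alternatives. CBX5, beside HOXC, had 0.12 (SE 0.04; edgeR adjusted p = 0.0341), a call lost in 3 of 14. TTLL6, near HOXB13, was at 0.749 ± 0.05 and 1.09 ± 0.09 CPM and did not pass (edgeR adjusted p = 0.0891). SKAP2, beside the HOXA cluster, had a log2 fold change of -0.19 (edgeR adjusted p = 0.0621) and passed as lower without control replicate 1 (adjusted p = 0.0253).

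**Figure D4:**
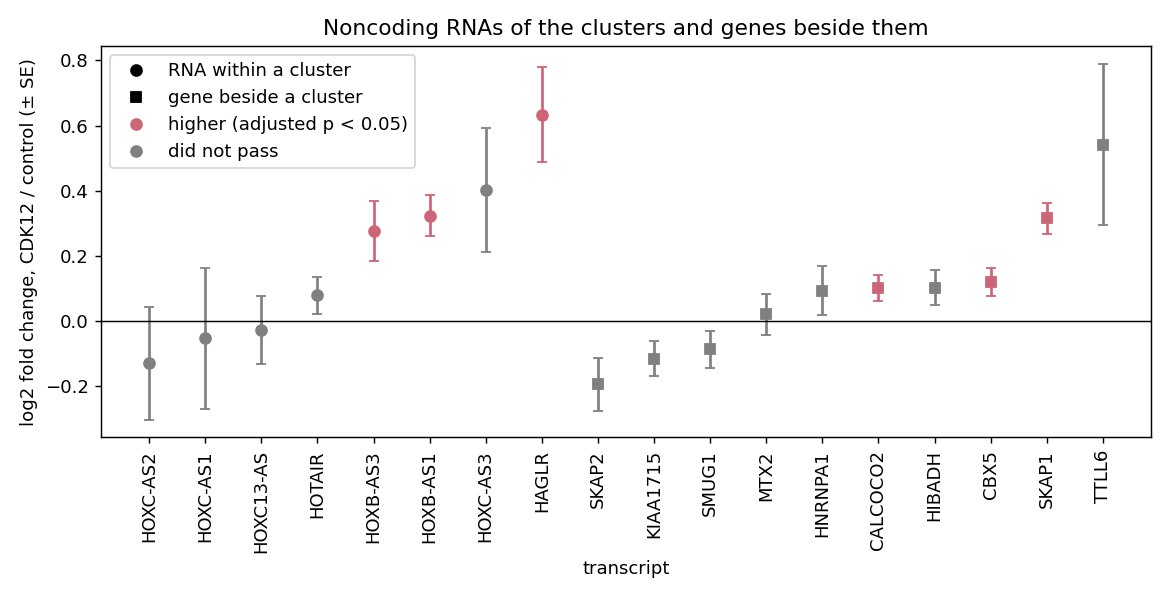
Log2 fold change (CDK12 over control, ± SE) of the 8 tested RNAs within HOX clusters (circles) and 10 tested genes beside them (squares), red for higher and grey for not passed. HAGLR (0.63), HOXB-AS1 (0.32) and SKAP1 (0.32) stand highest among those that passed.

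The DNA-binding partners of HOX proteins described here held no call. Of 7 tested TALE homeodomain genes (PBX, MEIS and PKNOX), 0 passed edgeR's test at the adjusted threshold and 0 had an unadjusted p under 0.05, and 0 passed with DESeq2 or limma-voom. Their median log2 change was 0.0080. PKNOX1 was at 30.3 ± 1.22 CPM in the controls against 32.5 ± 1.41 CPM with CDK12 (edgeR adjusted p = 0.194). PKNOX2, MEIS2 and PBX3 were near or under 1 CPM, and PBX4 had trace counts.

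Chromatin regulators of the clusters moved in both directions, beside a background of 35.1% of genes called. The median log2 change was 0.065 over the PRC2 list, 0.038 over PRC1 and -0.049 over the trithorax list. Of 11 tested genes of Polycomb complex PRC2, 3 rose and 0 fell: PHF1 (log2 fold change 0.22), EZH1 (0.27) and AEBP2 (0.19). EZH2, the main methyltransferase of that complex, was at 28.1 ± 0.87 and 28.4 ± 0.96 CPM (edgeR adjusted p = 0.891). SUZ12, its scaffold, did not pass at 0.14 but passed with upper-quartile or total-count scaling (adjusted p = 0.0273 and 0.0245) and without CDK12 replicate 1 (0.0193). Of 15 genes of Polycomb complex PRC1, 3 rose and 1 fell. PCGF6, a RING finger subunit, went from 14.8 ± 0.57 to 19.1 ± 1.02 CPM (log2 change 0.37 ± 0.07 SE, edgeR adjusted p = 0.00029). CBX7 (0.28), which reads histone methylation, and PHC3 (0.14) rose too, and PHC2 fell (-0.18). PHC3 lost its call in 6 of 14 alternatives, EZH1 in 1 and AEBP2 in 2.

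Of 12 trithorax and related genes, 2 rose and 3 fell. DOT1L, the methyltransferase of histone H3 that acts with MLL fusions on HOXA genes, fell from 55.7 ± 2.17 to 46.5 ± 4.68 CPM (log2 change -0.26 ± 0.06 SE, edgeR adjusted p = 0.00115). KMT2B (-0.22) and WDR5 (-0.16), parts of histone methyltransferase complexes, fell, and PSIP1 (0.20) and ASH1L (0.13) rose on the log2 scale. WDR5 lost its call in 2 of 14 alternatives, total-count scaling among them (adjusted p = 0.0569), PSIP1 in 4 and ASH1L in 3.

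Retinoic acid genes gave 1 rise and 3 falls among 11 tested, a share near the 35.1% called over all genes. CRABP2, which carries retinoic acid to the nucleus, had 172, 182 and 178 CPM in controls and 227, 209 and 231 CPM with CDK12 (log2 change 0.33 ± 0.04 SE, edgeR adjusted p = 1.26e-06). DHRS3, which turns retinal back to retinol, fell from 24.7 ± 1.58 to 19.2 ± 0.87 CPM (log2 fold change -0.36). ALDH1A2, a retinoic acid synthase, went from 0.980 ± 0.24 to 0.504 ± 0.05 CPM (edgeR adjusted p = 0.0137, but 0.0768 with the DESeq2 Wald test and 0.075 without control replicate 2). RARA, a retinoic acid receptor, fell with a log2 fold change of -0.16 (edgeR adjusted p = 0.0238), a call lost in 7 of 14 alternatives. The list's median log2 fold change was -0.07. None of the 6 ParaHox and CDX genes passed the filter, and CDX1, GSX1, GSX2 and PDX1 had 0 counts in all libraries.

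All 9 luminal epithelial markers were tested, of which 4 fell and 0 rose, where 18.9% of all genes tested fell and 16.2% rose. ERBB2, KRT8, KRT18 and GATA3 fell, and the other 5 did not pass. CDH1 among these 5 lay higher in all CDK12 libraries (edgeR adjusted p = 0.0891). The markers summed to 14107 to 14762 CPM in controls and 12441 to 12988 CPM with CDK12. The largest part of that sum was ERBB2, at 8656 ± 275 CPM in the controls and 7357 ± 257 CPM with CDK12. Fibroblast markers summed to 46.7 to 51.6 CPM against 60.3 to 71.3 CPM, nearly all of it COL1A1, and 2 of the 7 were tested. COL1A1 rose (log2 change 0.40, edgeR adjusted p = 6.55e-06), while COL3A1 fell from 0.602 ± 0.03 to 0.109 ± 0.07 CPM (edgeR adjusted p = 0.000181) and COL1A2, not tested, was at 0.296 ± 0.08 and 0.0511 ± 0.06 CPM. Leukocyte markers summed to 4.99 to 6.28 CPM against 3.17 to 3.54 CPM (3 of 6 tested). Among them PTPRC fell from 2.96 ± 0.11 to 0.358 ± 0.06 CPM (edgeR adjusted p = 4.51e-11), CD14 rose from 0.476 ± 0.13 to 0.852 ± 0.19 CPM (edgeR adjusted p = 0.0339), and CD68 did not pass. Endothelial markers summed to 2.45 to 3.29 CPM against 1.56 to 2.17 CPM (1 of 4 tested, with 0 called). These sums differed between the groups, no listed marker was at 0 in all libraries, and their part in the HOX values was not tested.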

How the data were processed

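Counts of reads per gene symbol, as deposited, were made by the authors with CASAVA 1.8, STAR 2.6.0c and featureCounts of Subread 1.6.2 on hg19, per the submitters' processing notes. For the annotation, strand setting and reads shared by genes, details were not given in the sources used here. Genes were filtered with filterByExpr (minimum count 10, minimum total 15), scaled by TMM and compared with edgeR 4.0.16's quasi-likelihood F test, with Benjamini-Hochberg adjustment over all 14665 genes tested and a threshold of 0.05. SEs were obtained as the absolute log2 fold change over the root of F, and mean ± SD is over 3 libraries. Members with 0 counts in all 6 libraries were called silent, and others failing the filter trace. Exon lengths and overlaps came from GENCODE 29 on GRCh38, another build than the counts, and sequences from RefSeq. Alternatives were other scalings, filters, DESeq2 1.42.0, limma-voom (limma 3.58.1), a replicate block and leaving out each library. All members were reported, and from other lists called genes, those with the smallest p and tested cluster RNAs. The members and lists were chosen with earlier results of these data known. EZH2, TTLL6, the markers and trace genes were named after their values were seen. Some genes are not reported here. The test was checked on simulated counts.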

Additional observations from a re-analysis of the deposited data

How the results depend on the processing

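The counts of 8 higher and 3 lower members were the same under every scaling, filter, test and the replicate block, and 8 of the 11 called members kept direction and call in all alternatives run. Leaving out 1 library gave 6 to 9 higher and 3 to 4 lower members, a median log2 fold change of the tested members of 0.14 to 0.22, and 3988 to 5045 genes called overall. The median was 0.19 in the main setting, 0.23 with upper-quartile factors or total counts and 0.26 without a filter, when 36 members passed. Same-numbered deviations from the group means correlated at -0.09, 0.10 and 0.06 over genes, and different-numbered ones at -0.13 to 0.07. With 3 libraries in a group these values cannot tell whether libraries were prepared in pairs. With the replicate block the median was 0.19, 8 members were higher, 3 lower and 5106 genes were called, against 5143 without it. Some values that did not pass the test changed sign. HOXB4 had log2 fold changes of 0.012 with upper-quartile factors and 0.018 with total counts, and HOXC13-AS 0.0094 and 0.015. With 1 library left out, HOXB8 ran from -0.20 to 0.091, HOXC5 from -0.024 to 0.22, HOXC13-AS from -0.072 to 0.040, HOXC-AS1 from -0.30 to 0.12 and EZH2 from -0.0075 to 0.041. The cause was not tested. With 1 library left out the smaller group has 2 libraries, and genes near or under 1 CPM, such as HOXA3 and HOXA6, are limited by depth.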
